A study of Mus musculus with 8 samples.

Results

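Small proline-rich proteins (Sprr) are short precursors of the cornified envelope. They were followed here as 10 genes, Sprr1a, Sprr1b, Sprr2a1, Sprr2b, Sprr2d, Sprr2e, Sprr2f, Sprr2h, Sprr3 and Sprr4, in mouse skin labelled wild type or knockout for the membrane protease Adam10. A gene was taken up when the array had a probe set annotated to that gene alone, and 9 of the 10 were found among 19935 genes tested. Sprr2a1 was the exception, because its probe sets are annotated to several Sprr2 genes at once. Expression was measured on Affymetrix Mouse Gene 1.0 arrays in 4 samples labelled Adam10 wildtype and 4 labelled Adam10 knockout, 1 array per sample. The titles call the knockouts cKO and carry a P with a number, 57, 58, 59 and 60 in wild-type arrays 1 to 4 and 67, 68, 69 and 55 in knockout arrays 1 to 4. The labels do not say what that number is, and they give no strain, sex, age or treatment. They name neither the cells that lost Adam10 nor a Cre driver or the deleted part of the gene, and they describe the material as skin in one field and as primary skin cells in another.

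Sprr proteins consist of a middle stretch of short proline-rich repeats between ends rich in glutamine and lysine. Transglutaminases join those ends to other envelope proteins such as loricrin and involucrin, so that the proteins act as bridges within the envelope under the plasma membrane of dying keratinocytes. Their genes lie side by side in the epidermal differentiation complex. In resting skin of the trunk several of them are low, and wounding, ultraviolet light, inflammation and barrier defects are known to raise some of them in epidermis.

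The stretches of DNA before the start sites are shown for the 3 members that differed between the genotypes, Sprr1a, Sprr1b and Sprr2h, and for Sprr2d and Sprr2e, which carry the same motifs as Sprr2h and did not pass. They are from RefSeq, assembly GRCm38.p6, 250 bases each, written 5′ to 3′ on the strand of the gene and ending at the last base before the annotated start. Capitals mark matches to TGANTCA (the AP-1 site, searched with any base at N), ATTTGCAT (the octamer) and TATAAA (the TATA box). Each was searched on both strands, and no 2 of the capitalised matches share a base.
Sprr1a, chr3:92485882-92486131, minus strand: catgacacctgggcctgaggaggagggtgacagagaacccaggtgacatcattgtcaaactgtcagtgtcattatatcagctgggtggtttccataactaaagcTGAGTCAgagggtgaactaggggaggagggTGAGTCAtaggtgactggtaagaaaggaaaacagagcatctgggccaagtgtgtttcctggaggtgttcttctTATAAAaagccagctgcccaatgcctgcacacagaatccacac
Sprr1b, chr3:92438780-92439029, minus strand: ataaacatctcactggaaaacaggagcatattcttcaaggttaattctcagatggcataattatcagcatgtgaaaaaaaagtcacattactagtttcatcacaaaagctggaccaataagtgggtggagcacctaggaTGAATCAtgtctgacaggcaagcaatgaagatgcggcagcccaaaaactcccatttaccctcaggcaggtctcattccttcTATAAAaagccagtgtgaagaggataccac
Sprr2h, chr3:92385435-92385684, plus strand: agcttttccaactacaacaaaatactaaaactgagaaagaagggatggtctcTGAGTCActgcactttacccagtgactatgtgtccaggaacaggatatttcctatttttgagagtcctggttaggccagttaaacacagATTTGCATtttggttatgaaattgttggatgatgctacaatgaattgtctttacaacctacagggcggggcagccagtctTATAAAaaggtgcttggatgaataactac
Sprr2d, chr3:92338890-92339139, plus strand: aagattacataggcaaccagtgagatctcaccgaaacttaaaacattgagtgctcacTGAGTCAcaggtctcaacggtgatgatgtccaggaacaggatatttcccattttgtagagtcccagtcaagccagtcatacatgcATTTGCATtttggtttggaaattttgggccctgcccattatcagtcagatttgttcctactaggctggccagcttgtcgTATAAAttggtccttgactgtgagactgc
Sprr2e, chr3:92351893-92352142, plus strand: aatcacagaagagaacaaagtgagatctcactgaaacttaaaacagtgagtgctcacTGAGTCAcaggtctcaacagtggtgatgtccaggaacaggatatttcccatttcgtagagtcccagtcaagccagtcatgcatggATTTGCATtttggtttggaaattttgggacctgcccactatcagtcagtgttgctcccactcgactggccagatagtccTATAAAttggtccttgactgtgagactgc

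A TGANTCA match lay in 7 of the 10 promoters, against 6.75% of 32851 RefSeq promoters of the same length. Sprr1a held 2 of them, beginning 146 and 116 bases before the start, a number reached by 0.338% of all promoters. Sprr1b held 1, at 111 bases. Sprr2b, Sprr2d, Sprr2e, Sprr2f and Sprr2h held 1 each, between 193 and 198 bases before the start. The match in Sprr1b reads TGAATCA, and all the others read TGAGTCA. Those 5 Sprr2 genes share that form with Sprr1a. Those 5 genes also held ATTTGCAT, between 108 and 112 bases before the start, against 1.6% of all promoters. Sprr3, Sprr4 and Sprr2a1 held no TGANTCA in this window. TATAAA was found in 8 of the 10, against 12.4% of all. TGACNNNGC, the antioxidant response element, was found in Sprr1a, where it overlaps the farther TGANTCA, and in Sprr2f, against 10.2% of all promoters. The promoters are related by descent, so their matches are not independent. Over the alignment of 250 bases, Sprr2d and Sprr2e were 89.3% identical, and Sprr2h was 66.0% identical to Sprr2e and 65.0% to Sprr2d. The RefSeq model of Sprr4 is 231 bases long and opens with atg, so its window ends at the coding sequence. The model of Sprr2a1 is 6657 bases long, against 1256 to 1734 for the other Sprr2 members. The Sprr2a1 window was 49.3 to 52.8% identical to theirs, and whether it holds the promoter used in skin was not tested.

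Values are log2 of the deposited intensity unless another scale is named, and differences are knockout minus wild type. Array medians ran from 3.73 to 3.92, and 25th percentiles from 2.15 to 2.28. Adam10 itself was at 7.39, 7.33, 7.06 and 7.34 in wild type and at 6.85, 7.00, 7.04 and 6.79 in knockout, a difference of -0.36 (SE 0.11, limma adjusted p = 0.064). The groups did not overlap, and the difference did not pass the threshold of 0.05. Wild-type arrays 3 and 4 stood apart in muscle signal. The mean level of 18 skeletal muscle genes was 5.15 and 7.16 there, 3.96 and 4.18 on wild-type arrays 1 and 2, and 3.89 to 4.08 on the knockouts. The groups also differed in how many arrays carried Y chromosome transcripts, 3 of 4 in wild type and 2 of 4 in knockout. Skin epidermis was represented on every array by the suprabasal and envelope genes, whose list of 25 measured genes had a mean level of 7.84 to 8.40 in wild type and 7.98 to 8.20 in knockout.

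Sprr1a, Sprr1b and Sprr2h were higher in the knockout skin, and the other 6 measured members did not pass. Of all genes tested 6.41% were called higher and 2.34% lower, 8.75% in either direction, by limma with Benjamini-Hochberg adjustment over the 19935 genes. Among the 9 members 3 were called higher and 0 lower. At an unadjusted p under 0.05 the count was 4 higher and 0 lower, the fourth being Sprr4. The share of all genes at that looser threshold is not given, here or for the lists below, so such counts have no background beside them. The same 3 were the members whose groups did not overlap, which 12.2% of all genes did in the higher direction. The median difference of the 9 members was 0.18, against 0.0027 for all genes and 0.11 for the brighter genes, those no dimmer than the median gene. In samples that hold several cell types, more cells that make a transcript and more transcript per cell cannot be told apart.

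**Figure D1:**
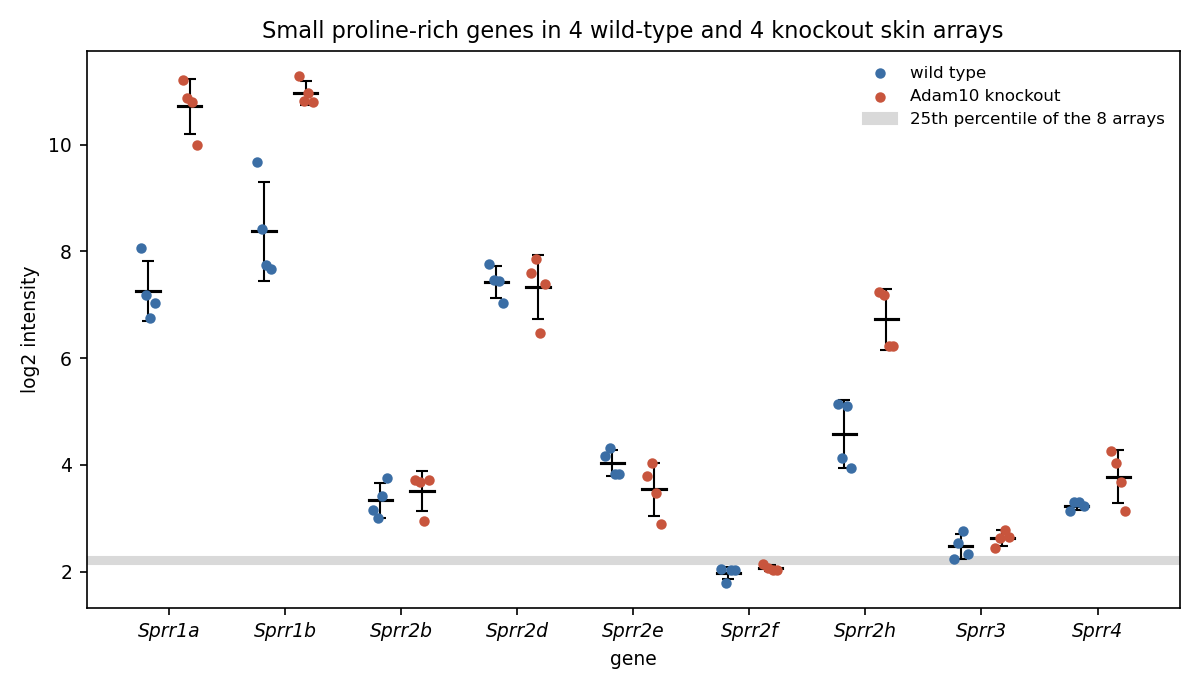
Log2 intensity of the 9 measured Sprr genes (x axis) on each array, with wild type in blue and knockout in red, 4 arrays each. Bars show the mean and the SD, and the grey band the 25th percentile of the arrays (2.15 to 2.28). Sprr1a, Sprr1b and Sprr2h have no overlap between groups, and Sprr2f lies at the foot of the band or below it.

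Sprr1a, an envelope precursor that is also known for its induction in injured nerve cells and stressed heart muscle, had the largest difference of the members. It was at 8.07, 7.17, 6.76 and 7.03 on wild-type arrays 1 to 4 and at 11.21, 10.88, 10.81 and 10.00 on knockout arrays 1 to 4. The lowest knockout value lay well above the highest wild-type value, which was that of wild-type array 1. The mean rose from 7.26 ± 0.57 to 10.72 ± 0.52 (SD, n = 4), a difference of 3.47 (SE 0.30, 95% interval 2.79 to 4.14, limma adjusted p = 0.00075), or 11.1-fold. In intensity units the wild-type arrays held 108.0 to 269 and the knockouts 1021 to 2372.

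Sprr1b, long known as cornifin, belongs to the same branch of the family and serves in the same bridging role. It was at 9.68, 8.41, 7.74 and 7.67 in wild type and at 11.29, 10.81, 10.98 and 10.79 in knockout. The knockouts lay close together and the wild-type arrays were spread, again with array 1 highest. The mean rose from 8.37 ± 0.93 to 10.97 ± 0.23 (SD, n = 4), a difference of 2.59 (SE 0.38, 95% interval 1.76 to 3.43, limma adjusted p = 0.0043), or 6.04-fold.

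Sprr2h was the member of the Sprr2 group, the largest branch of the family, that passed. It was at 5.15, 4.13, 5.10 and 3.95 in wild type and at 7.25, 7.19, 6.23 and 6.23 in knockout. The values fell in pairs within each genotype, with wild-type arrays 1 and 3 and knockout arrays 1 and 2 high, and the lowest knockout still lay above the highest wild type. The mean rose from 4.58 ± 0.63 to 6.73 ± 0.57 (SD, n = 4), a difference of 2.14 (SE 0.33, 95% interval 1.40 to 2.89, limma adjusted p = 0.0055), or 4.42-fold.

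Leaving out wild-type arrays 3 and 4 together left all 3 calls in place. The differences were then 3.10 for Sprr1a (limma adjusted p = 0.0025), 1.92 for Sprr1b (0.00907) and 2.09 for Sprr2h (0.013). With the muscle level as a covariate they were 3.22, 2.05 and 1.85, and with the level of Y-linked genes as a covariate 3.41, 2.42 and 2.08, all passing. With any 1 array left out the 3 genes passed in all 8 fits, with highest adjusted p of 0.0066, 0.021 and 0.025. Each of the 3 had an exact two-sided permutation p of 0.0286, the smallest that the 70 assignments of the arrays can give.

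Sprr4, known as a member that ultraviolet light raises in epidermis, had a difference of 0.54 that did not pass. It was at 3.13, 3.30, 3.30 and 3.22 in wild type and at 4.27, 4.04, 3.68 and 3.13 in knockout. Knockout arrays 1 to 3 lay above all wild-type arrays, and knockout array 4 lay at the bottom of the wild-type range. The 95% interval was 0.08 to 1.00 and the limma adjusted p was 0.14 (SE 0.21). Without knockout array 4 the difference was 0.76 and passed (adjusted p = 0.016), and it passed with array weights too (0.66, adjusted p = 0.023).

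Sprr2d and Sprr2e are neighbours in the Sprr2 group, and neither passed. Sprr2d was at 7.76, 7.46, 7.44 and 7.04 in wild type and at 7.60, 7.86, 6.48 and 7.39 in knockout, a difference of -0.09 (95% interval -0.69 to 0.50, limma adjusted p = 0.86). The groups overlapped, and knockout array 3 was the lowest of the 8. Sprr2d changed sign under median centring and on leaving out wild-type array 1 or knockout array 3, and passed in none of the fits run. Sprr2e was at 4.16, 4.31, 3.82 and 3.82 in wild type and at 3.79, 4.03, 3.47 and 2.88 in knockout, a difference of -0.49 (95% interval -0.99 to 0.01, limma adjusted p = 0.21). Knockout array 2 lay inside the wild-type range and the other 3 knockouts below it. The difference was -0.27 on omitting knockout array 4 (adjusted p = 0.39).

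Sprr2b, Sprr2f and Sprr3 had small differences and overlapping groups. Sprr2b was at 3.01 to 3.75 in wild type and 2.94 to 3.72 in knockout, a difference of 0.18 (95% interval -0.28 to 0.64, limma adjusted p = 0.63). Those values are from the probe set of Sprr2b alone. A brighter probe set that Sprr2b shares with other Sprr2 genes, described below, differed by 1.80. Sprr3, best known from the lining of mouth and oesophagus, was at 2.24 to 2.76 in wild type and 2.43 to 2.79 in knockout, a difference of 0.15 (95% interval -0.14 to 0.44, adjusted p = 0.50). Sprr2f, known for its response to oestrogen in the uterus, was at 1.80 to 2.05 in wild type and 2.03 to 2.15 in knockout, a difference of 0.10 (95% interval -0.11 to 0.30, adjusted p = 0.56). Its values lay below the 25th percentile of every array, where a difference can be understated, and no detection calls were used.

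**Figure D2:**
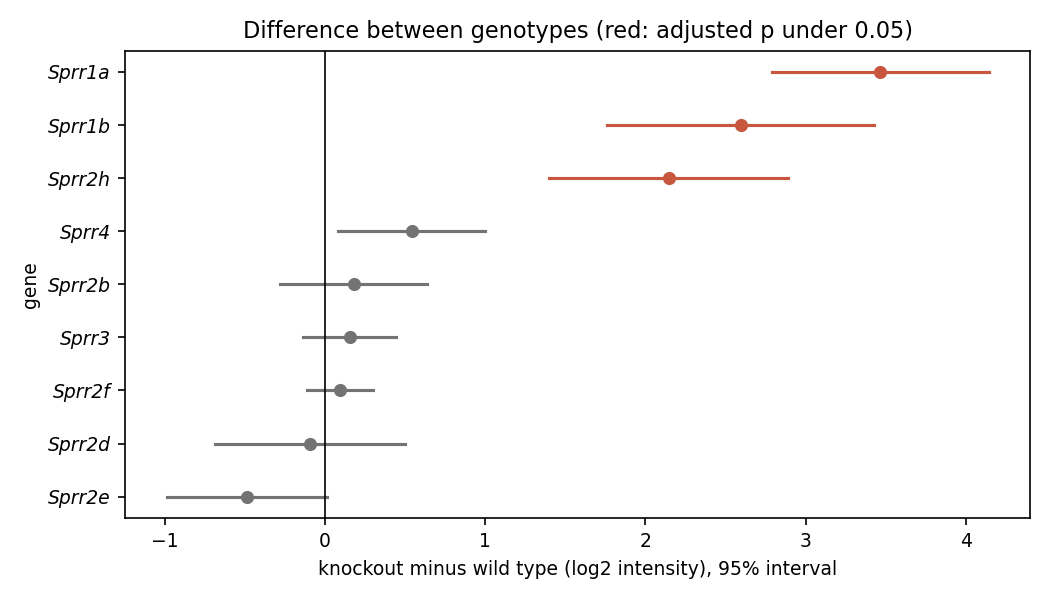
Difference between genotypes (knockout minus wild type, log2) for each measured member (x axis) with its 95% interval from limma, genes on the y axis in order of size. Red marks the 3 genes with an adjusted p under 0.05. The intervals of Sprr1a, Sprr1b and Sprr2h start at 2.79, 1.76 and 1.40, and those of the other members end at or below 1.00.

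Whether members differed from each other in their response was tested for all 36 pairs, on the difference between both genes within each array, with the exact two-sided permutation test. The smallest p it can give, 0.0286, was reached by 20 pairs, and Benjamini-Hochberg adjustment over the 36 pairs takes those to 0.051, so 0 pairs passed at 0.05 after adjustment and 20 did before it. Of the 20 pairs, 18 set Sprr1a, Sprr1b or Sprr2h against a member that did not pass. Those 18 are all the pairs of that kind. The members were divided by calls from the same values, so the count adds no separate support. Among the partners, Sprr2f and Sprr3 were dim, at mean rank percentiles of 11.7 and 17.9 in wild type, where a difference can be understated. Sprr1a rose by 3.56 more than Sprr2d (95% interval of a linear model 2.51 to 4.61) and by 1.32 more than Sprr2h (0.35 to 2.30). Sprr2h exceeded other members of the same branch, Sprr2d by 2.24 (1.49 to 2.98) and Sprr2e by 2.63 (1.70 to 3.56). Sprr4 exceeded Sprr2e by 1.03 (0.62 to 1.43). Sprr1a and Sprr1b differed in their response by 0.87 (0.19 to 1.56, exact permutation p = 0.057), and Sprr1b and Sprr2h by 0.45 (-0.76 to 1.66, exact permutation p = 0.46).

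**Figure D3:**
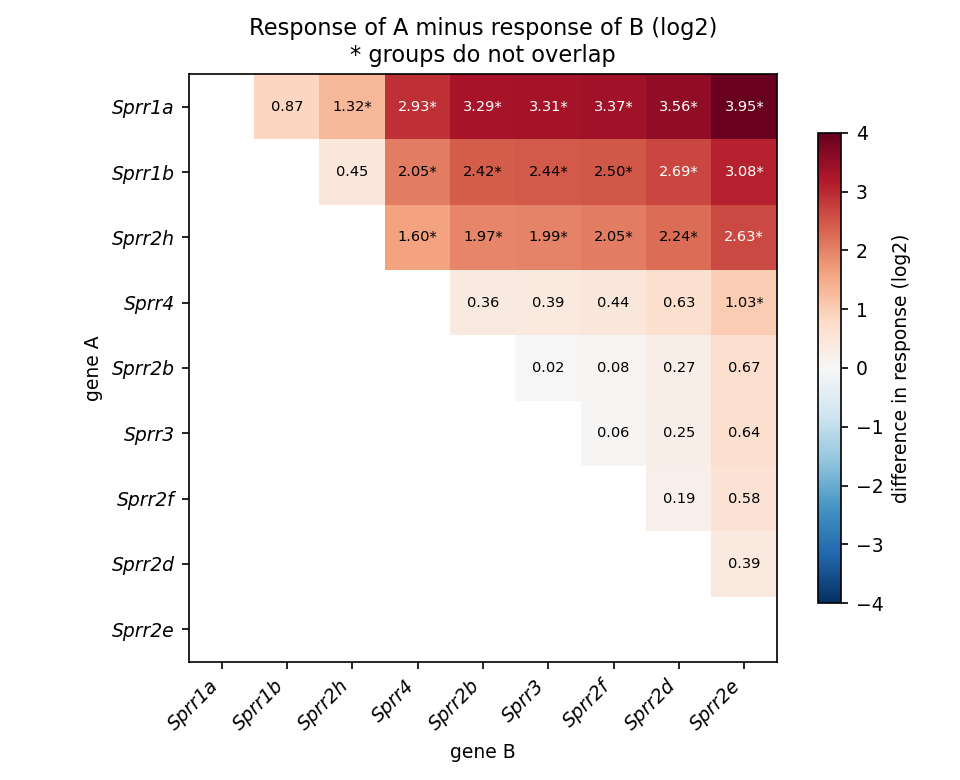
Difference in response between pairs of members (gene A in rows, gene B in columns, both ordered by their own difference), as the knockout minus wild-type difference of A minus that of B on the log2 scale. An asterisk marks the 20 pairs whose groups do not overlap. The values of Sprr1a reach 3.95 against Sprr2e, and those among the members that did not pass stay between 0.02 and 1.03.

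Of the measured members that did not pass, only Sprr3 lay between members that rose. Sprr2b, Sprr2d, Sprr2e and Sprr2f lay on one side of these, and Sprr4 on the other. In the RefSeq order along chromosome 3, between the gene of loricrin (Lor) and that of involucrin (Ivl), 21 named genes follow each other, and 17 had a probe set of their own. Of these 17, 4 were called higher, against 6.41% of all genes tested. Sprr2h lies next to Sprr2g, and after Sprr2i, Sprr2j-ps and Sprr2k follow Sprr1b, Sprr3, Sprr1a and Sprr4. Sprr3 thus lies between Sprr1b and Sprr1a, both of which rose, while its own difference was 0.15. Sprr3 was dim, at a mean rank percentile of 17.9 in wild type and 21.1 in knockout among the genes tested. A difference can be understated at that level. Lor and Ivl, main proteins of the envelope at the ends of this stretch, had differences of -0.04 (adjusted p = 0.88) and 0.49 (adjusted p = 0.14).

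Other probe sets of the family, not annotated to any of the 10 genes alone, were looked at after the members' values were seen. Sprr2g, annotated as a transcribed pseudogene, was at 2.40, 1.69, 2.00 and 1.79 in wild type and at 3.63, 3.16, 3.29 and 2.94 in knockout, a difference of 1.29 (SE 0.19, limma adjusted p = 0.0039). On 3 of the wild-type arrays it was under the array's 25th percentile, so its fold is uncertain. Sprr2k differed by 0.45 (adjusted p = 0.079), Sprr2j-ps by 0.19 and Sprr2i by 0.04. The probe sets annotated to several Sprr2 genes, Sprr2a1 among them, number 3, of which 2 hold identical values. The one shared by 4 genes is annotated to Sprr2a1, Sprr2a2, Sprr2a3 and Sprr2b. It was at 9.04, 7.30, 8.71 and 7.20 in wild type and at 10.20, 9.79, 9.46 and 9.98 in knockout, a difference of 1.80 (SE 0.42). In the limma fit over all 35519 probe sets its adjusted p was 0.057. The one shared by 2 genes differed by 1.43 (SE 0.33, adjusted p = 0.058 in that fit). In both, all knockout arrays were above all wild-type arrays, and none of their genes can be read singly. Sprr2 genes are near copies of each other, so signal may pass between their probe sets, which was not tested, and each Sprr2 value is uncertain to that extent.

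**Figure D4:**
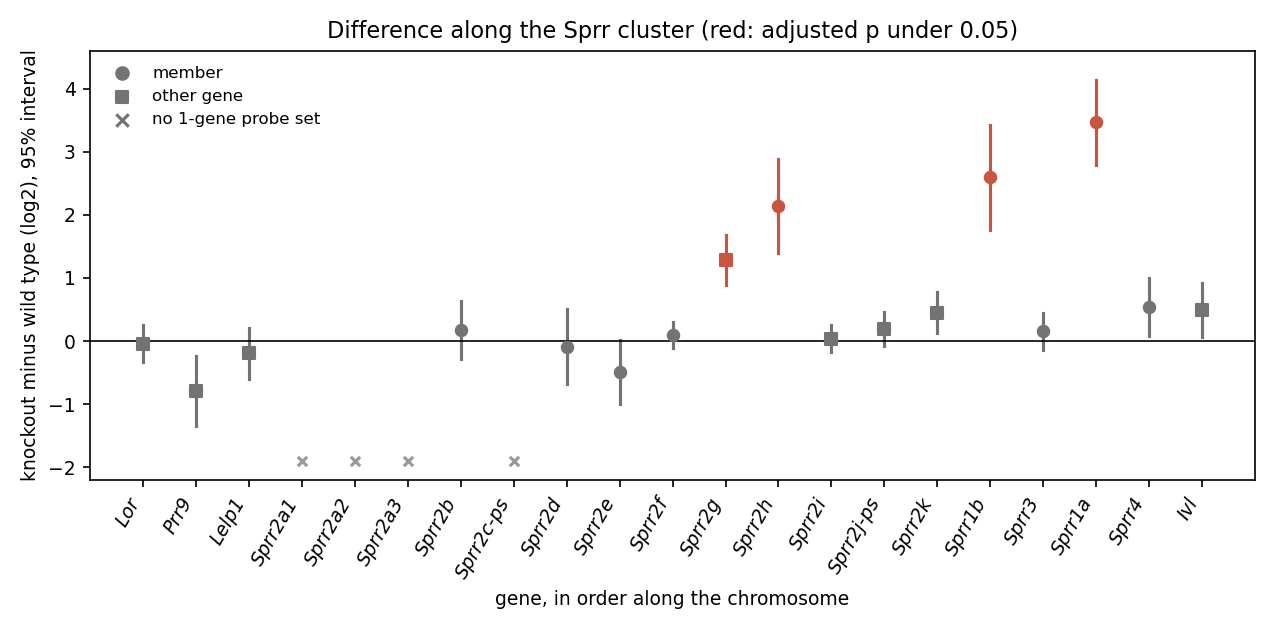
Log2 difference between knockout and wild type (y axis, with 95% interval) for the genes from Lor to Ivl in their order along the chromosome (x axis, not to distance). Circles are members, squares other genes, crosses genes without a probe set of their own, and red marks an adjusted p under 0.05. Sprr2g, Sprr2h, Sprr1b and Sprr1a are red, at 1.29, 2.14, 2.59 and 3.47, and Sprr2i, Sprr2j-ps, Sprr2k and Sprr3, which did not pass, lie between some of them.

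Genes for the proteins that Sprr molecules are joined to, and for the enzymes that join them, held no single call. The list was not tested as a group. Of 25 measured genes for other envelope proteins, transglutaminases and suprabasal keratins 0 passed in either direction (limma), against 8.75% of all genes. At an unadjusted p under 0.05, 2 were higher and 3 lower, counts with no share of all genes beside them. The median difference was -0.04. Ivl was at 0.49 and Tgm1, the main cross-linking enzyme of the envelope, at 0.55 (adjusted p = 0.15). Tgm1 was at 0.32 on omitting wild-type array 4, and with the muscle list as covariate Tgm1 was at 0.17 and Ivl at 0.28. Tgm3, a transglutaminase of hair and upper epidermis, had the smallest p of the list, with a difference of -0.72 (SE 0.22, adjusted p = 0.073). Omitting wild-type array 4 brought it past the threshold (adjusted p = 0.0036), with 3 of the list then called lower. Prr9 (-0.80, limma adjusted p = 0.076) also passed there (0.031), without wild-type array 1 (0.047) and with array weights (0.018). The level of Prr9 was low, with means of 2.26 in wild type and 1.47 in knockout. Tgm3 also passed with quantile normalization (adjusted p = 0.044), cyclic loess (0.035), the filter at the median gene (0.041) and array weights (0.0045), at -1.06 on omitting wild-type arrays 3 and 4 together (0.0089), and at -1.12 with the muscle list as covariate (0.0017).

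Late envelope and fused S100 proteins of the same gene complex held some large rises. Of 25 measured genes 4 rose and 1 fell, against 6.41% and 2.34% of all genes, with a median difference of 0.19. Rptn, the matrix protein repetin, rose by 4.88 (SE 0.44, adjusted p = 0.00077). Lce3c, a late envelope protein of damaged skin, rose by 1.49 (adjusted p = 0.014), Crnn, cornulin of stratified linings, by 1.39 (0.0051), and Lce3f by 1.37 (0.021). Tchh, trichohyalin of the inner root sheath of hair, fell by 0.78 (adjusted p = 0.015). Lce3c and Tchh lost their calls without knockout array 2 (adjusted p = 0.058 for both), where 2 genes of this list rose and 0 fell. Lce3f lost its call in 4 of the 8 fits with 1 array left out, those that omitted wild-type array 3 or knockout array 1, 2 or 3, and without both wild-type arrays 3 and 4. Its wild-type mean, 1.57, lay below the 25th percentile of the arrays, and its difference was 0.32 on log2 of the value plus 16, so the size of its change is uncertain.

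The 4 stress keratins, which wounded and hyperproliferative epidermis makes beside Sprr1 proteins, were all called higher, against 6.41% of all genes. Krt16 differed by 3.66, Krt6b by 2.96, Krt6a by 2.84 and Krt17 by 0.63, each passing in all 8 fits with 1 array left out and without wild-type arrays 3 and 4.

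Among transcription factors and signalling genes known to act on Sprr promoters or on late keratinocyte differentiation, 7 of 29 rose and 1 fell. Of all genes tested 6.41% were called higher and 2.34% lower. The median difference of the 29 was 0.16. The 7 that rose included subunits of AP-1, the factor whose site was searched as TGANTCA. A match to that site also lay before Sprr2b, Sprr2d, Sprr2e and Sprr2f, which did not pass. Any part of AP-1 in the Sprr differences was not tested. Jun was at 6.79 to 7.12 in wild type and 7.72 to 8.47 in knockout, a difference of 1.03 (SE 0.16, limma adjusted p = 0.0056). Fosb rose by 0.85 (0.017), Fosl1 by 0.80 (0.013) and Jund by 0.62 (0.0054). The AP-1 subunits Fos, Fosl2 and Junb did not pass, with differences of 0.28, 0.13 and -0.06. Ets1, Ets2 and Ovol1 rose by 0.71, 0.70 and 0.59. Nfe2, a blood cell factor related to Nrf2, fell by 0.68 (adjusted p = 0.0030). Klf4, a factor of the epidermal barrier, and Pou2f3, an octamer-binding factor of epidermis, did not pass, with differences of -0.05 and 0.0049. On omitting wild-type array 3, knockout array 1 or knockout array 2, 4 of the list rose, and on omitting wild-type arrays 3 and 4 together also 4. Fosl1, Ovol1 and Ets2 lost their calls in the last of these (adjusted p = 0.056, 0.081 and 0.12). Ets1 and Ovol1 lost theirs in 4 of the 8 fits with 1 array left out, those that omitted wild-type array 3 or knockout array 1, 2 or 3. Ets2 lost its call in 5, those that omitted wild-type array 2 or 3 or knockout array 1, 2 or 4, and it did not pass with quantile normalization (adjusted p = 0.072) or cyclic loess (0.090).

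**Figure D5:**
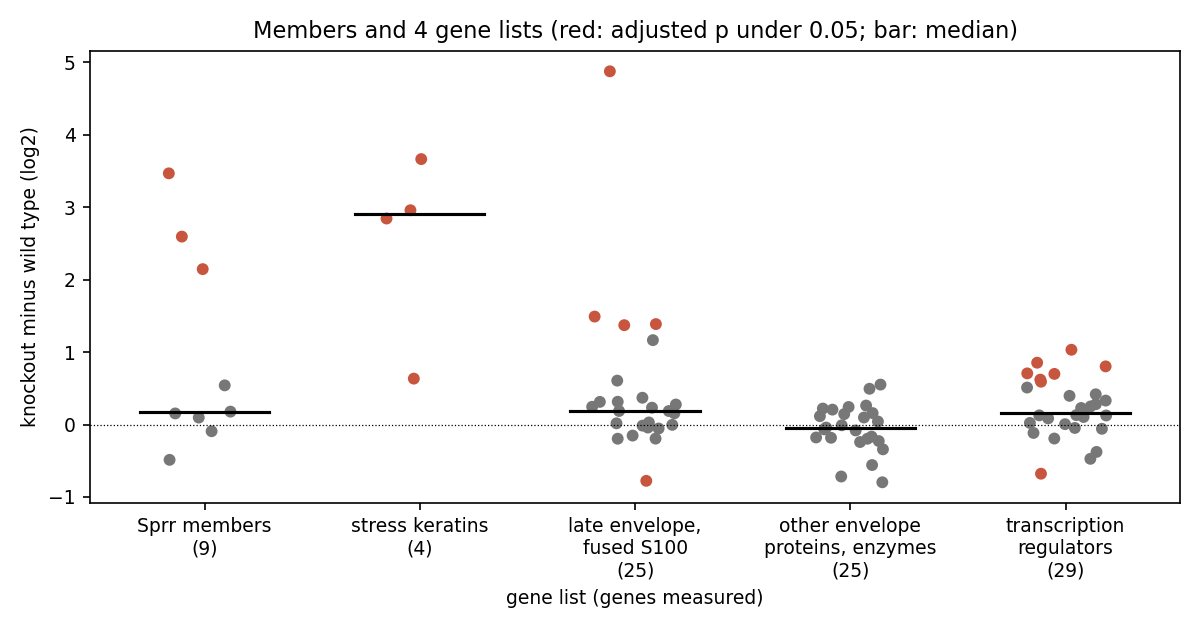
Log2 difference between knockout and wild type (y axis) for the Sprr members and 4 gene lists (x axis, with the number measured). Each point is a gene, red with an adjusted p under 0.05, and the bar is the list's median. The 9 members and the 25 late envelope and fused S100 genes each have a few large rises over a median near 0.2, and the other envelope genes have a median of -0.04 and no red point.

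Some lists of cell type markers held calls between the genotypes, and others held none. Of all genes tested 6.41% were called higher and 2.34% lower. Of 13 measured basal keratinocyte markers 11 rose, with a median of 0.89 and a mean level of 7.76 to 8.29 in wild type and 8.89 to 9.17 in knockout, and none of them lay at the low end of the arrays. Of 16 hair follicle markers 5 rose, with a mean level of 5.86 to 6.01 against 6.05 to 6.19. At an unadjusted p under 0.05 (limma) 8 of them were higher and 3 lower, the keratins Krt25 (-0.56), Krt71 (-0.68) and Krt33b (-0.37). Krt15 rose and is counted both as a hair follicle and as a basal marker. Of 14 macrophage markers 8 were lower, with a mean level of 4.72 to 5.39 against 3.90 to 4.19, and of 8 melanocyte markers 5 rose (5.16 to 5.58 against 5.87 to 6.48). The part of these cells in the Sprr differences was not tested. Of 8 markers of oral and forestomach lining, where Sprr genes are also made, Crnn was called and the other 7 were not, with a mean level of 3.94 to 4.10 against 4.10 to 4.33. The skeletal muscle, adipocyte, dermal fibroblast, endothelial, neutrophil and T cell lists had 0 members called by limma. At an unadjusted p under 0.05 the dermal fibroblast list held 1 higher and 5 lower genes, and the muscle list 2 lower. The adipocyte and neutrophil lists held 1 lower each, and the endothelial and T cell lists 0. Of 9 mast cell markers Kit, which melanocytes also carry, was called higher and 0 lower by limma, while 5 were lower and 2 higher at an unadjusted p under 0.05, and the median was -1.31. The mean level of the 9 was 3.51 on wild-type arrays 1 and 2, 4.53 and 6.04 on arrays 3 and 4, and 3.36 to 3.43 in knockout. Adipocyte, dermal fibroblast, endothelial and mast cell levels were highest on wild-type array 4, without which the Sprr calls were the same. The unadjusted counts in this paragraph have no share of all genes beside them, so they are not read as results about the lists.

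Genes whose values followed a member most closely over the 8 arrays were listed with Pearson's r, which here includes the genotype difference and the shared arrays. Sprr1a was followed by Adam8 (r = 0.995), a protease of the Adam family, and Sertad2 (0.994). Sprr1b was followed by Krt16 (0.989), the stress keratin, and Ids (0.985). Sprr2h was followed by Pim1 (0.997), a kinase, and Smad2 (0.993). Adam8, Krt16, Ids and Pim1 were called higher, by 1.82, 3.66, 0.39 and 0.59, while Sertad2 (0.25) and Smad2 (0.31) did not pass. Sprr4 was followed by Klc1 (0.992) and Gpat4 (0.977), and Sprr2e by Pacsin1 (0.987) and Tas2r118 (0.981). Sprr2d was followed by Tff3 (0.953) and Fdft1 (0.948), Sprr2b by Lrrc7 (0.966) and Ppp4r4 (0.928), Sprr3 by Zfp879 (0.966) and Armt1 (0.956), and Sprr2f by Nip7 (0.958) and Ube2w (0.942). None of the genes listed for these last 6 members passed the test.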

How the data were processed

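Intensities of 8 arrays were used as deposited, 1 value per probe set and array. The authors made them with RMA, per the submitters' processing notes, with version, settings and genome version not given in the sources used here. The deposited intensities run on a linear scale, and they were turned into log2 values without a pseudocount. Detection calls and scan dates were not used, and arrays give no depth, so their number limits the precision. The platform annotation gave exactly 1 symbol to 21780 of 35519 probe sets, several to 1605 and none to 12134. Of several probe sets per gene the one with the highest mean was kept, which left 19935 genes. By Entrez identifier 21689 of the 21780 matched RefSeq, with 0 symbols changed.

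Genotypes were compared with limma 3.58.1 in R 4.3.3 (lmFit, eBayes, two-sided) and Benjamini-Hochberg adjustment over all genes. The script was tested on simulated data. The labels do not say that samples came from separate animals, so p-values measure the spread between these samples. The members, lists and alternatives were chosen with earlier results of these data known. All members were named. From each of 4 lists up to 3 genes that rose and 3 that fell were named, or the one with the smallest p, and further members of lists and of the family were named after their values were seen. For each member the 2 other genes with the highest r were named. Promoters were aligned with Biopython 1.88. Alternatives were other scalings, filters on dim genes, probe set rules, priors, array weights, thresholds of 0.01 and 0.10, log2 of the value plus 16, covariates, and arrays left out. Their application to genes and lists outside the family was added after seeing the data.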

Additional observations from a re-analysis of the deposited data

Results flagged for a closer look

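A far array was looked for in each genotype for each of the 9 members, 18 groups of 4, by the gap of the highest or lowest array to its nearest neighbour as a share of the whole range. Chance passes the limit, Dixon's 95% critical value for 4 samples, in about 1 group in 20. Sprr2b in knockout had a share of 0.955, since array 3 was at 2.94 and the other arrays between 3.68 and 3.72. Sprr2f in wild type had a share of 0.907, since array 2 was at 1.80 and the other arrays between 2.02 and 2.05. Neither gene passed the test between genotypes with all arrays.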

How the results depend on the processing

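The 3 calls among the members, Sprr1a, Sprr1b and Sprr2h, held in every alternative run. Their differences ran from 3.10 to 3.79, 1.92 to 3.03 and 1.59 to 2.33. The count of members called higher was 3 to 4 and of members called lower 0. In the alternatives run for pairs of members, 0 pairs passed after adjustment. The smallest p of the exact test, 0.0286 with all arrays, leaves little room to pass, so that 0 says little. Sprr2d, at -0.09, turned to 0.0095 under median centring and Lor, at -0.04, to 0.060, with no call. With 1 array left out Sprr2d ran from -0.27 to 0.19 and Lor from -0.16 to 0.018, above 0 on omitting wild-type array 1 or knockout array 3. Sprr2b, Sprr2f and Sprr3 fell below the filter at the median gene, as did Sprr2e and Sprr4, and Sprr2f and Sprr3 below that at the 25th percentile, so these have no value there. The count of all genes called, 1744, was 2739 after median centring, 1099 over all probe sets, 3621 with array weights, 478 and 2958 at thresholds of 0.01 and 0.10, and 925 without wild-type arrays 3 and 4. Leaving out 1 array gave 587 to 1997, the lowest on omitting knockout array 2. It was 992 and 750 on omitting wild-type arrays 2 and 3 in turn, and 911 and 809 on omitting knockout arrays 1 and 3 in turn. Rises made up 73.2% of the calls, but 63.0% with quantile normalization, 56.9% with cyclic loess and 89.6% with median centring, under which the median gene lay at 0.10. The cause was not tested. No paired analysis was possible because the labels give the groups no shared replicate numbers.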

Other observations

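Within a genotype the members did not share 1 order of arrays. Knockout array 4 was the lowest knockout for Sprr1a (10.00), Sprr1b (10.79), Sprr2e (2.88) and Sprr4 (3.13), while knockout array 3 was the lowest for Sprr2d (6.48), Sprr2b (2.94) and, with 6.23, level with array 4, Sprr2h. In wild type, arrays 1 and 3 were the highest for Sprr2h (5.15 and 5.10) and for the probe set annotated to 4 Sprr2 genes (9.04 and 8.71), with arrays 2 and 4 at 4.13 and 3.95 and at 7.30 and 7.20. For Sprr1b wild-type array 3 (7.74) lay with array 4 (7.67) at the low end. Replicates have no order, and these values are given without a test.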
